A study of Mus musculus with 7 samples.

Results

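The 10 genes described here encode enzymes of triglyceride synthesis: Gpam, Gpat3, Gpat4, Agpat1, Agpat2, Agpat3, Lpin1, Lpin2, Dgat1 and Dgat2. They were chosen by gene symbol among the 50686 genes of each deposited table, and all 10 were among the 17559 genes tested. RNA sequencing was performed on microglia of C57BL/6 male mice, 4 young (3 to 4 months; animal codes 14C, 18C, 23C and 29C) and 3 old (21 to 22 months; 2posI, 3posI and 4posI), with 1 mouse per library. All mice, of both ages, had undergone a 45 min transient occlusion of the middle cerebral artery 4 days earlier, and the cells were sorted as CD11b+ CD45low cells stained by Bodipy, a dye of the neutral lipid in lipid droplets. There was no Bodipy-negative, sham or naive group among these libraries, and the comparison asks how the ischemic, droplet-bearing cells of old mice differ from those of young mice.

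Triglyceride is made at the endoplasmic reticulum by adding fatty acids in turn to glycerol-3-phosphate. Glycerol-3-phosphate acyltransferases (GPAT) make lysophosphatidic acid, acylglycerol-phosphate acyltransferases (AGPAT) turn it into phosphatidic acid, lipins remove the phosphate to give diacylglycerol, and diacylglycerol acyltransferases (DGAT) add the last fatty acid. The product collects between the membrane leaflets and buds off as the core of a lipid droplet, while phosphatidic acid and diacylglycerol also feed the synthesis of membrane phospholipids.

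By edgeR, the main test across all genes, 0 of the 10 enzymes were called between ages at an adjusted p under 0.05 (0.803% of all genes tested were), 2 had an unadjusted p under 0.05 (18.9% of all genes), and DESeq2 called 2, Gpam and Agpat1 (9.07% of the genes to which it gave an adjusted p). The lowest level in old mice relative to young was that of Gpam, at 3.8 ± 0.479 CPM (SD, n = 3) in old and 9.24 ± 2.36 CPM (SD, n = 4) in young, where CPM is the count relative to the total of its library, scaled between libraries by the trimmed mean of M values (TMM). Gpam and Agpat1 were the members whose old libraries all lay below all young libraries, against 9.07% of all genes tested, and 0 had all old libraries above the young, against 8.67%. Gpat3, Agpat2, Lpin1, Dgat1 and Dgat2 had higher old means. With a single mouse, 3posI, left out, the means of Gpat3, Dgat1 and Dgat2 were below those of young mice. That of Agpat2 was then level with young mice (12.1 CPM), and that of Lpin1 was higher still (23.7 CPM, against 17.8 in young).

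Total expected counts were 45379786 to 53002386 in the young libraries, and 36574083, 42931779 and 46133564 in 2posI, 3posI and 4posI. Among the old libraries, only 4posI lay within the young range. The library of 3posI stood apart. Its summed CPM of 13 microglial markers was 13199, against 23844 to 35451 in the other libraries, and its summed CPM of 8 markers of monocytes and monocyte-derived macrophages was 4152, against 189 to 567. Of these 8, 3 (Ly6c2, Plac8 and Ms4a4c) were higher in every old library than in every young one, against 8.67% of all genes tested. Ly6c2 was at 15.3 CPM in 2posI and 9.59 in 4posI, against 0.946 to 2.86 in young. The other monocyte markers overlapped between ages, and edgeR called 0 of the 8. In 3posI the 7 border-associated macrophage markers summed to 1522 CPM, against 129 to 543. Mrc1 (78.8 CPM in 3posI, 79.2 in 2posI) and Cd163 (23.2 in 3posI, 27.4 in 2posI) were not highest in 3posI. The other markers of this list were, with F13a1 (500), Ms4a7 (441) and Pf4 (315) as the largest values. Neutrophil markers summed to 16.9 to 166 CPM, lymphocyte markers to 0.268 to 3.55, endothelial markers to 57.9 to 135, astrocyte markers to 66.6 to 204, oligodendrocyte markers to 121 to 163 and neuronal markers to 2.91 to 10.4, and no marker was at 0 in every library. The endothelial sum was 74.7 to 135 in young and 57.9 to 78.7 in old libraries. Of the 8 endothelial markers, 7 had a lower and 1 a higher level in old mice. Without overlap, 3 were lower (9.07% of all genes tested were), and edgeR called 1 (0.803% of all genes were). The highest neutrophil sum was also that of 3posI (166 CPM), followed by the young library 29C (131 CPM). S100a8, Ltf, Camp, Retnlg and Ly6g were higher in 29C than in 3posI, and S100a9, Mmp8 and Cxcr2 were higher in 3posI. A CD45low gate is meant to leave out infiltrating leukocytes, which carry more CD45. In bulk samples such as these, fewer cells of a type and less RNA per cell cannot be told apart, and the part of these other cells in the results was not tested.

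**Figure D1:**
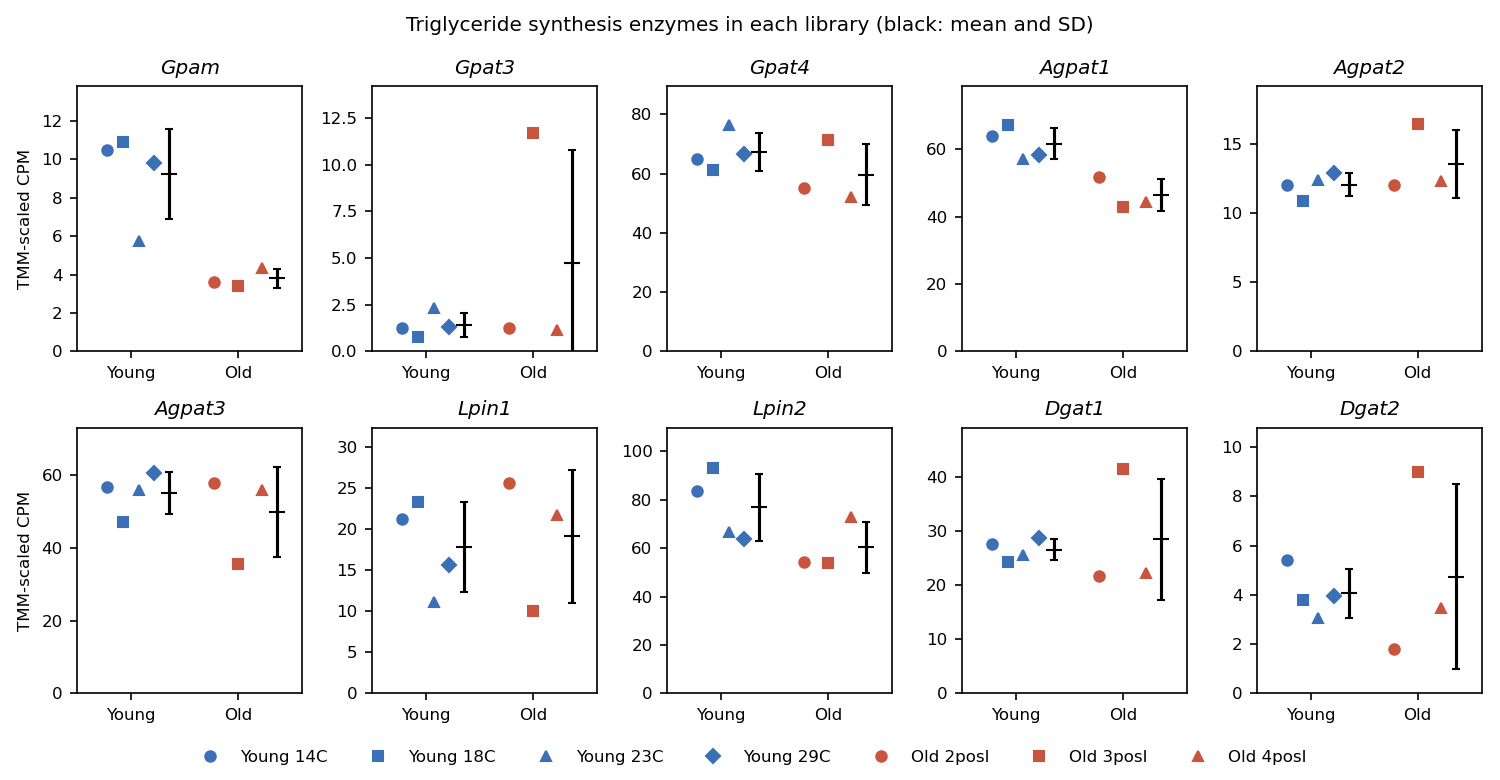
TMM-scaled CPM of each of the 10 enzymes (linear axes from 0), with 1 point per library, young mice in blue and old mice in red, and the mean and SD in black (the SD bar of Gpat3 in old mice is cut at 0). Gpam and Agpat1 separate the ages, and 3posI (red square) is the highest library for Gpat3, Agpat2, Dgat1 and Dgat2.

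The sequences before the transcription start are shown for Gpam and Agpat1, the 2 members whose ages did not overlap on CPM. Each gene has 2 windows in the table, and the one that holds a CCAAT box was printed. Each is the 250 bases upstream of a RefSeq start on GRCm38.p6, written 5′ to 3′ on the strand of the gene. Capitals mark a CCAAT box, found in both on the opposite strand (ATTGG), and in Agpat1 also a GC box (GGGCGG). The window not shown holds a GC box and no CCAAT box in either gene.
Gpam, chr19:55127239-55127488, minus strand: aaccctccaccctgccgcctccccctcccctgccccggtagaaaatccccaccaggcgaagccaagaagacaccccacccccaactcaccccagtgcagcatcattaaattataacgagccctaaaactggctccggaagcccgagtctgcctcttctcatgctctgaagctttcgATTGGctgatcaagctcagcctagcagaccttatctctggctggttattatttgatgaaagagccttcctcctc
Agpat1, chr17:34605611-34605860, plus strand: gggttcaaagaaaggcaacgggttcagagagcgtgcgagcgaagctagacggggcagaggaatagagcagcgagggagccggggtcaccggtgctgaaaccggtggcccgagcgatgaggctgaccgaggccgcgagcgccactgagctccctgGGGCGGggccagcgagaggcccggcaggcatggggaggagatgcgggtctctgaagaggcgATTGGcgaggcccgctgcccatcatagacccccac

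The table of promoters held 11 windows for 7 members (Gpam, Gpat3, Agpat1, Agpat2, Agpat3, Lpin1 and Lpin2), and Gpat4, Dgat1 and Dgat2 had none. The search covered both strands for the CCAAT box, the GC box, the sterol regulatory element TCACNCCAC and the E-box CACGTG. Of all 32851 promoter windows of this length, 33.8% held a CCAAT box, 32.7% a GC box, 1.05% the sterol regulatory element and 6.02% the E-box. Among the 11 windows, the CCAAT box was in 3 (1 each of Gpam, Agpat1 and Lpin2) and the GC box in 7. None of the 11 held TCACNCCAC, and the E-box was in 1 window of Lpin2. Such matches are descriptions of the letters in these windows.

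The first step is catalyzed by 3 members. Gpam (ENSMUSG00000024978, chromosome 19, 55067268 to 55127238, minus strand, GRCm38) encodes the acyltransferase of the mitochondrial outer membrane. Its CPM was 10.5 in 14C, 10.9 in 18C, 5.77 in 23C and 9.81 in 29C among young mice, and 3.64 in 2posI, 3.42 in 3posI and 4.34 in 4posI among old mice. All old libraries were below all young ones, and 23C was the young library nearest to them. The log2 fold change, old minus young, was -1.28 (SE 0.26, 95% interval -1.87 to -0.69), with an adjusted p of 0.062 in the quasi-likelihood test of edgeR (Benjamini-Hochberg adjusted over all genes), which misses the threshold of 0.05. The value was -1.45 to -1.19 when any 1 library was left out, with adjusted p of 0.0514 to 0.187. By DESeq2 the adjusted p was 0.000258, and by edgeR with no filter on low counts it was 0.0396. Gpam has 1 transcript in the deposited annotation, all its counts were whole, and its effective length was the same in every library, so that TPM, which is per length, gave the same separation (3.39 ± 0.883 in young and 1.32 ± 0.275 in old).

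Gpat3 (ENSMUSG00000029314, chromosome 5, 100845713 to 100899102, plus strand) encodes an acyltransferase of the endoplasmic reticulum. It was measured at 1.26, 0.761, 2.31 and 1.33 CPM in 14C, 18C, 23C and 29C, and at 1.25, 11.7 and 1.17 CPM in 2posI, 3posI and 4posI. The library of 3posI alone was high, and the other 2 old libraries lay within the young range. Over all libraries the log2 fold change was 1.73 (SE 0.80, edgeR adjusted p = 0.288, 95% interval -0.10 to 3.55), and it was -0.23 (adjusted p = 0.843) without 3posI. DESeq2 gave no adjusted p for this gene. The same library had the highest sums of monocyte and of border-associated macrophage markers, although Mrc1 and Cd163 were not highest there. The part of such cells in the level of Gpat3 was not tested. Gpat3 shares 1052 of its 3502 exon bases with the antisense gene 4930458D05Rik, whose count was at most 26.9% of that of Gpat3, and 259 bases with Gm42987. Without strand in the libraries, reads that lie within the bases shared by Gpat3 and its antisense partner cannot be told apart by strand.

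Gpat4 (ENSMUSG00000031545, chromosome 8, 23171265 to 23208346, minus strand) encodes an acyltransferase of the endoplasmic reticulum that can move onto the surface of growing droplets. It reached 64.9, 61.3, 76.5 and 66.7 CPM in 14C, 18C, 23C and 29C, and 55.2, 71.4 and 52.2 CPM in 2posI, 3posI and 4posI. The ages overlapped through 3posI, and the other old libraries were below every young one. Its log2 fold change was -0.18 (SE 0.14, 95% interval -0.50 to 0.15, edgeR adjusted p = 0.535), and -0.33 (adjusted p = 0.247) without 3posI. On the TPM scale all old libraries were below all young ones, at 26.2 ± 2.37 in young (SD, n = 4) and 19.4 ± 2.08 in old (SD, n = 3).

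The second step is catalyzed by 3 further members. Agpat1 (ENSMUSG00000034254, chromosome 17, 34604262 to 34613449, plus strand) encodes a widely expressed enzyme of the endoplasmic reticulum. It was measured at 64.1, 67.3, 57.2 and 58.5 CPM in 14C, 18C, 23C and 29C, and at 51.8, 43.0 and 44.4 CPM in 2posI, 3posI and 4posI. Every old library was below every young one, also on the TPM scale (42.7 ± 4.60 in young and 30.7 ± 3.05 in old). A log2 fold change of -0.41 (SE 0.12, 95% interval -0.69 to -0.14, edgeR adjusted p = 0.131, and 0.0368 by DESeq2) was obtained. It was -0.50 to -0.36 without any 1 library, and -0.22 (adjusted p = 0.403) once a trend of each library over GC content was removed. The GC content of its longest transcript was 59.0%, the highest of the 10. The count of Agpat1 was whole in 1 of 7 libraries, so that reads were shared out by the authors' counting. Egfl8, on the opposite strand, shares 101 exon bases with it, but its count was at most 4.57% of that of Agpat1.

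Agpat2 (ENSMUSG00000026922, chromosome 2, 26593057 to 26604417, minus strand), whose loss causes a generalized lack of fat tissue in people and mice, was at 12, 10.9, 12.4 and 12.9 CPM in the young libraries and at 12, 16.4 and 12.3 CPM in 2posI, 3posI and 4posI. Here 3posI was the highest library and the other old ones lay inside the young range. The log2 fold change was 0.17 (SE 0.16, 95% interval -0.20 to 0.54, edgeR adjusted p = 0.609) and 0.01 without 3posI. Egfl7, a gene of endothelial cells on the opposite strand, shares 64 of the 2130 exon bases of Agpat2 and had a count of up to 76.6% of that of Agpat2. The count of Agpat2 was whole in 5 of 7 libraries, and the part of the shared bases in its level was not tested.

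Agpat3 (ENSMUSG00000001211, chromosome 10, 78269178 to 78352489, minus strand), an enzyme of the endoplasmic reticulum and Golgi, was at 56.7, 47.2, 56.0 and 60.7 CPM in the young libraries and at 57.8, 35.6 and 56.1 CPM in the old ones, in the order given. The only low old library was 3posI. Old minus young, the log2 fold change was -0.15 (SE 0.18, 95% interval -0.56 to 0.27, edgeR adjusted p = 0.704), and 0.05 without 3posI.

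The third step is represented by 2 lipins, phosphatidate phosphatases that also act as coregulators of transcription in the nucleus. Lpin1 (ENSMUSG00000020593, chromosome 12, 16535669 to 16610966, minus strand) was at 21.2, 23.3, 11.1 and 15.7 CPM in 14C, 18C, 23C and 29C, and at 25.6, 10.0 and 21.8 CPM in 2posI, 3posI and 4posI. Each age held both high and low libraries, and the spread within an age was larger than the difference between ages. Between ages, the log2 fold change was 0.10 (SE 0.35, 95% interval -0.69 to 0.89, edgeR adjusted p = 0.899), and it lay between -0.16 and 0.41 when 1 library was left out.

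Lpin2 (ENSMUSG00000024052, chromosome 17, 71182560 to 71249817, plus strand) was at 83.8, 93.2, 66.6 and 63.9 CPM in the young libraries and at 54.3, 54.0 and 72.7 CPM in 2posI, 3posI and 4posI. The old libraries 2posI and 3posI were below every young library, and 4posI was within the young range. The log2 fold change was -0.35 (SE 0.18, 95% interval -0.75 to 0.05, edgeR adjusted p = 0.327), and it was negative without each library in turn (-0.51 to -0.24). On the log2(TPM + 0.1) scale it was -0.71, still with overlapping ages (39.7 ± 8.38 TPM in young and 25.1 ± 9.81 in old).

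The last step is catalyzed by Dgat1 and Dgat2, unrelated enzymes that carry out the same reaction. Dgat1 (ENSMUSG00000022555, chromosome 15, 76502015 to 76511953, minus strand), which spans the membrane of the endoplasmic reticulum, was at 27.7, 24.4, 25.7 and 28.7 CPM in the young libraries and at 21.7, 41.5 and 22.3 CPM in 2posI, 3posI and 4posI. The old group held the highest library, 3posI, and the 2 lowest. The log2 fold change was 0.10 (SE 0.23, 95% interval -0.42 to 0.62, edgeR adjusted p = 0.849) over all libraries and -0.27 (adjusted p = 0.315) without 3posI, when both remaining old libraries were below every young one.

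Dgat2 (ENSMUSG00000030747, chromosome 7, 99153658 to 99182719, minus strand), found in the endoplasmic reticulum and at the droplet surface, was at 5.43, 3.8, 3.08 and 3.94 CPM in the young libraries and at 1.79, 8.97 and 3.45 CPM in the old ones. Again 3posI was the highest library, and 2posI was the lowest. For Dgat2 the log2 fold change was 0.22 (SE 0.49, 95% interval -0.88 to 1.33, edgeR adjusted p = 0.839), and -0.63 (adjusted p = 0.405) without 3posI. The monocyte markers of 3posI stand beside the high DGAT values of this library, and their part in them was not tested.

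**Figure D2:**
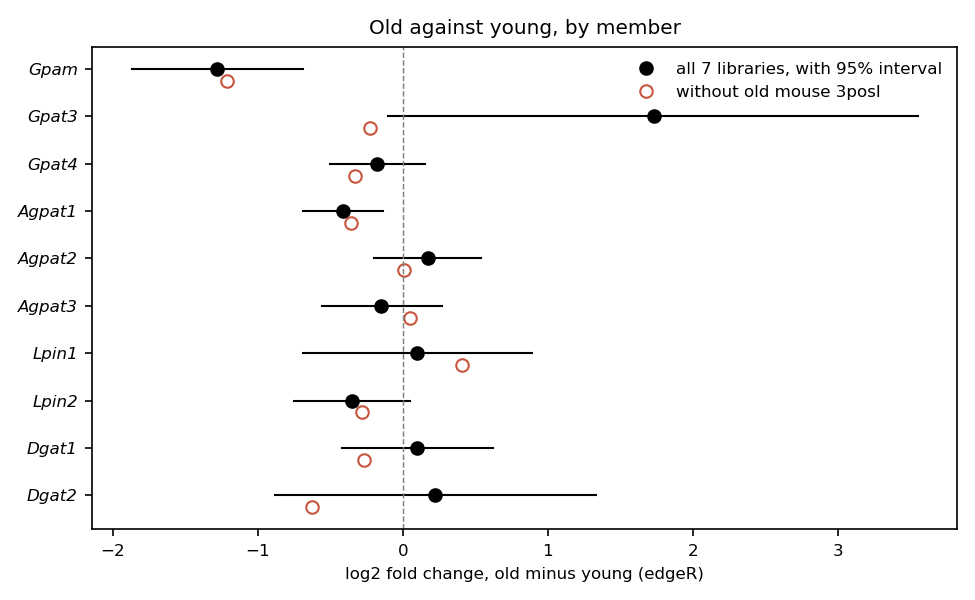
Log2 fold change of each enzyme, old minus young, from the edgeR fit over all 7 libraries (black point, line: 95% interval) and without 3posI (open red point). Gpam and Agpat1 are the members whose interval lies below 0, and the values of Gpat3, Dgat1 and Dgat2 move from above to below 0 without 3posI.

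Over the 10 members, 0 were called by edgeR at an adjusted p under 0.05, against 0.803% of all genes tested, and 2 (Gpam and Agpat1) had an unadjusted p under 0.05, against 18.9%. DESeq2 called the same 2, against 9.07% of the 15431 genes it gave an adjusted p, and limma-voom called 0. On CPM, 2 members had all old libraries below the young, against 9.07% of all genes, and 0 had them above, against 8.67%. On TPM, 3 members (Gpam, Gpat4 and Agpat1) had all old libraries below the young, against 11.2%. Of the 10 fold changes, 5 were positive and 5 negative, with a median of -0.02, close to the -0.01 of all genes tested. Without 3posI, 7 were negative, and 4 (Gpam, Gpat4, Agpat1 and Dgat1) had both remaining old libraries below all young ones, against 14.8% of all genes. The library of 3posI was the highest or the lowest of the 7 for 9 of the 10 members (the highest for 4 and the lowest for 5, with Gpat4 as the exception), whereas it was so for 41.8% of all genes tested.

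To compare the isozymes with each other, TPM values were summed within each step. Gpat4 was the most abundant enzyme of the first step, with 85.1% ± 2.72 of the summed GPAT TPM in young mice (SD, n = 4) and 85.0% ± 9.12 in old mice (SD, n = 3). Agpat1 led the AGPAT step in each library, with 48.8% ± 4.69 in young and 45.1% ± 2.43 in old. Lpin2 made up 90.0% ± 1.81 and 84.2% ± 7.88 of the lipin TPM, and Dgat1 made up 89.9% ± 1.16 and 91.6% ± 2.95 of the DGAT TPM. On TPM the leading isozyme was the same in both ages at each step. On CPM, which is not per length, Agpat1 held 47.9% of the AGPAT step in young and 42.4% in old mice and Agpat3 42.7% and 44.9%, so that Agpat3 was ahead in the old mean.

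The order of the mean TPM in young mice was Agpat1 (42.7), Lpin2 (39.7), Agpat3 (32.5), Dgat1 (26.5), Gpat4 (26.2), Agpat2 (12.2), Lpin1 (4.46), Gpam (3.39), Dgat2 (2.98) and Gpat3 (1.18). The gap between the first 5 and Agpat2, and that between Agpat2 and the last 4, exceeded the spread of the libraries, while the neighbors Agpat1 and Lpin2, Lpin2 and Agpat3, Dgat1 and Gpat4, Lpin1 and Gpam, and Gpam and Dgat2 differed by less than the larger of their SDs. In old mice the order was Agpat1 (30.7), Dgat1 (28.4), Lpin2 (25.1), Agpat3 (24.4), Gpat4 (19.4), Agpat2 (13), Lpin1 (4.49), Dgat2 (2.92), Gpat3 (2.47) and Gpam (1.32), and the neighbors among the first 5 and among the last 4 differed by less than the larger of their SDs. Gpam and Gpat3 were thus minor parts of the first step. Gpam held 11.1% ± 3.21 of it in young mice and 5.92% ± 1.87 in old mice, with 23C (6.42%) within the old range of 3.96% to 7.69%. Gpat3 held 2.55% to 4.99% in the young libraries, 2.85% in 2posI, 2.86% in 4posI and 21.5% in 3posI.

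Agpat2 held 13.2% to 14.8% of the AGPAT TPM in the young libraries and 15.3%, 25.6% and 17.4% in 2posI, 3posI and 4posI. Its share was higher in every old library, although its own CPM did not separate the ages, and its share of the expected counts, which are not per length, overlapped between ages (9.85% in 2posI and 9.89% in 23C). Lpin1 held 24.6% of the lipin TPM in 2posI, its largest share, against 7.30% to 11.2% in the young libraries. The ratio of Dgat1 to Dgat2 TPM was 7.97 to 10.7 in the young libraries and 17.9, 7.97 and 10.3 in 2posI, 3posI and 4posI, so that 2posI stood apart from the rest. Its ratio rests on a Dgat2 expected count of 60 (1.04 TPM), the lowest of all libraries.

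The summed TPM of the AGPAT step was 87.4 ± 3.42 in young mice (range 83.3 to 91.6) and 68.1 ± 7.72 in old mice (60.5 to 75.9), with no overlap. The GPAT sum was 30.8 ± 1.98 and 23.2 ± 5.17, the lipin sum was 44.1 ± 9.67 and 29.6 ± 10.5, and the DGAT sum was 29.4 ± 2.99 and 31.3 ± 15.8, and in each of these 3 the ages overlapped. The 10 members together had 175 to 203 TPM in the young libraries and 130, 163 and 164 TPM in 2posI, 3posI and 4posI. The sums carry no test, and in the fit on the log2(TPM + 0.1) scale the median fold change of all genes was -0.13, against -0.01 on counts.

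**Figure D3:**
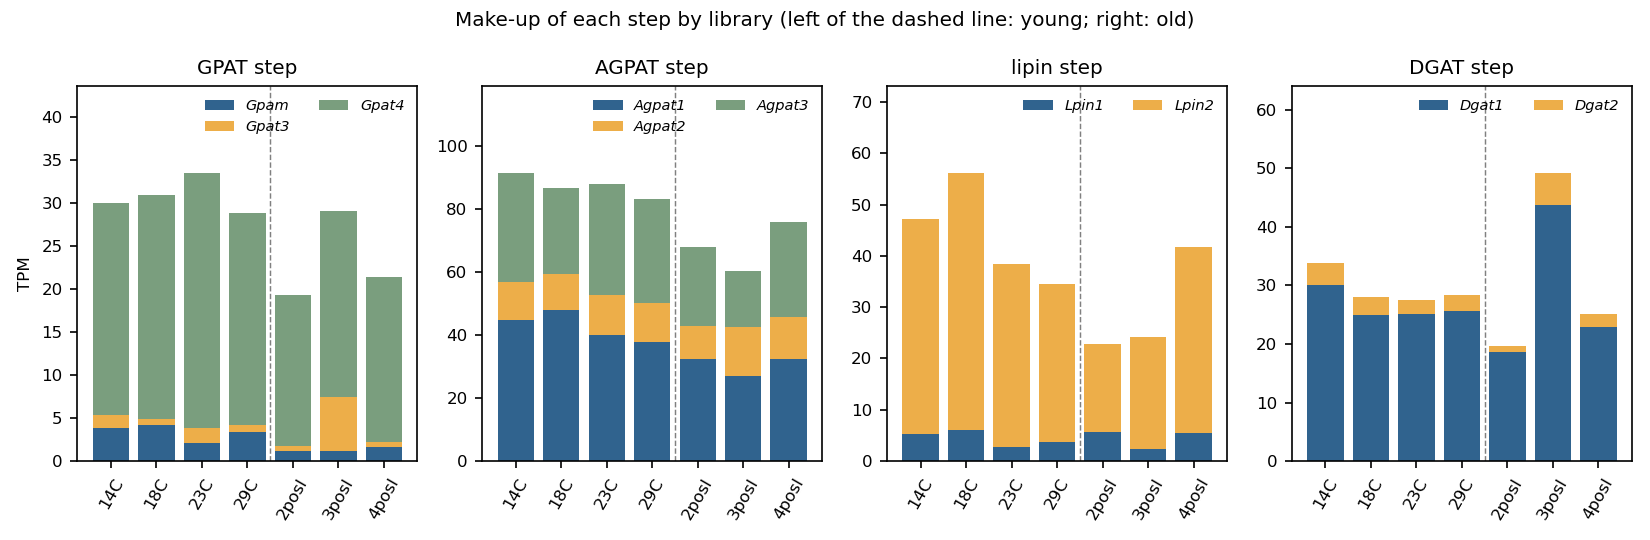
Summed TPM of the enzymes of each step in each library (linear axes from 0), with the isozymes stacked in colors, young libraries left and old libraries right of the dashed line. The AGPAT sum is lower in each old library than in each young one, and 3posI has the largest DGAT sum (49.3 TPM) and Gpat3 part.

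TPM, unlike CPM, divides by the effective length, the mean length over which the authors' program could place a fragment, weighted by the isoforms to which it assigned the reads. Effective length varied between libraries for all members but Gpam. It was longer in every old library than in every young one for 6 of these 9, against 15.4% of the 9632 tested genes whose effective length varied and whose mean reached 1 CPM in either age. It was shorter in every old library for 0 members, against 7.10%. Over the same genes the median change was 0.689% of the young mean. An exact permutation test of each length (difference of means, unadjusted) gave p = 0.0286, the smallest possible, for Gpat4 and Lpin2. By the same test p was 0.0571 for Gpat3, Agpat1, Agpat3, Lpin1 and Dgat2, and 0.457 for Agpat2 and Dgat1.

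Lpin2 had an effective length of 2786.98, 2672.88, 2636.2 and 2711.24 bases in 14C, 18C, 23C and 29C, and of 3859.28, 3123.95 and 2872.63 bases in 2posI, 3posI and 4posI. The old libraries were all longer, and they differed among themselves by more than the young ones did. For Gpat4 the means were 3563 ± 126 bases in young and 3977 ± 182 in old, a difference of 11.6% of the young mean. For Agpat3 they were 2358 ± 111 and 2665 ± 140 bases (13%), and for Dgat2 1879 ± 87.9 and 2130 ± 73.3 bases (13.4%). For Gpat3 they were 1689 ± 487 and 2623 ± 224 bases (55.2%), where the expected counts behind them were as low as 34.12. The difference of Lpin1, 6 bases or 0.103%, was also without overlap. Agpat1, Agpat2 and Dgat1 overlapped between ages, with differences of -2.06%, -1.19% and -4.21%. Levels of single transcripts were not analysed here, and whether RNA fragmentation or depth moved with these lengths was not tested.

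**Figure D4:**
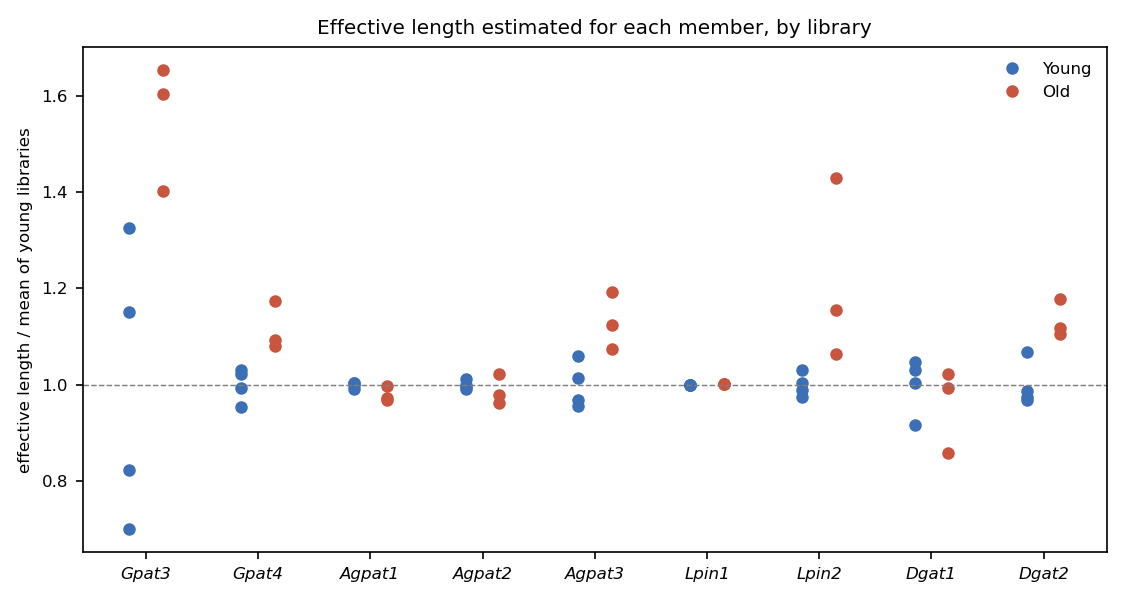
Effective length of 9 enzymes in each library, divided by the mean of the young libraries of that gene (dashed line at 1), young in blue and old in red (Gpam, with 1 transcript, is left out). All old points lie above the young points for Gpat3, Gpat4, Agpat3, Lpin2 and Dgat2, and for Lpin1 by a margin too small to see.

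The genes around the pathway were read in the same way. Of 47 genes in 4 lists, 42 were tested and edgeR called 0, against 0.803% of all genes tested, while 5 had an unadjusted p under 0.05, against 18.9%. DESeq2 called 3, against 9.07% of the genes to which it gave an adjusted p, and limma-voom called 0. The old libraries lay above all young ones for 2 of the 42, against 8.67% of all genes, and below them for 6, against 9.07%. The median log2 fold change was -0.05, against -0.01 over all genes tested. The lists were other glycerolipid synthesis enzymes (15 of 18 tested), phospholipid branches from phosphatidic acid and diacylglycerol (14 of 16), diacylglycerol kinases (9 of 9) and droplet formation at the endoplasmic reticulum (4 of 4).

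Ctdnep1, the phosphatase that activates lipins by dephosphorylating them, had 10.8, 12.3, 9.55 and 11.8 CPM in the young libraries and 23.3, 17.7 and 19.6 CPM in the old ones. All old libraries were higher. Its log2 fold change was 0.86 (SE 0.16), with an edgeR adjusted p of 0.0519, just above the threshold, 6.87e-05 by DESeq2, and 0.0434 by edgeR without 3posI. Gpd1l, related to the dehydrogenase that supplies glycerol-3-phosphate, was lower in all old libraries (58.8 ± 4.60 CPM in young, 40.3 ± 4.81 in old, log2 fold change -0.55, SE 0.13, edgeR adjusted p = 0.0852). That dehydrogenase itself, Gpd1, had 13.4 ± 1.97 and 10.6 ± 1.1 CPM with overlapping ages (edgeR adjusted p = 0.328).

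Among diacylglycerol kinases, which turn diacylglycerol back into phosphatidic acid, Dgkz had 237 ± 13.8 CPM in young and 159 ± 36.9 in old mice, without overlap (log2 fold change -0.57, SE 0.17, edgeR adjusted p = 0.136). Dgkq also had no overlap, at 19.4 ± 2.40 and 13.6 ± 1.79 CPM (-0.51, adjusted p = 0.147), whereas Dgkd overlapped (-0.29, adjusted p = 0.427). In the phospholipid branches, Pcyt2, of phosphatidylethanolamine synthesis, was lower in all old libraries (-0.38, adjusted p = 0.226), and Chpt1, of phosphatidylcholine synthesis, had all old libraries above the young (0.33, adjusted p = 0.269). Tamm41, of mitochondrial cardiolipin synthesis, overlapped between ages (0.41, adjusted p = 0.286). Of the genes for droplet formation, Fitm2 had 5.65 ± 0.110 CPM in young and 4.84 ± 0.152 in old mice, without overlap (-0.23, adjusted p = 0.501), while Bscl2, which encodes seipin, and Tmem159 overlapped (0.13 and -0.01).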

How the data were processed

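Libraries were made by a low-input protocol (Smart-seq2) from polyadenylated RNA, without strand. The authors trimmed reads with skewer, checked them with FastQC 0.11.5, mapped them with STAR to GRCm38 and quantified GENCODE m15 genes with RSEM (STAR and RSEM without versions in the sources used here). The deposited expected counts are not normalized, and 66.2% of those above 0 were whole (within 0.001). The authors' TPM values are scaled within each library, and the deposited effective length and length were read beside them. The FPKM values were not used.

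Expected counts were rounded to whole numbers. Following the study's methods, genes were kept where 1 or more libraries exceeded an expected count of 10, and 614 genes of the sex chromosomes or mitochondrial DNA were removed (42 tested genes had no annotated chromosome). Age groups were compared by the quasi-likelihood test of edgeR 4.0.16 (R 4.3.3) with TMM scaling and no covariate, with Benjamini-Hochberg adjustment over all 17559 genes tested and a threshold of 0.05. Alternatives used limma 3.58.1 (limma-voom with and without quality weights, and log2(TPM + 0.1)), DESeq2 1.42.0, other scaling factors, offsets for effective length and GC content (lowess span 0.3), other filters, and each library left out. The counting of members whose ages do not overlap, without each library and on TPM, was added after the data were seen. Scripts were tested on simulated data. Each library came from a different mouse, so the spread includes that between animals, and no batch was labelled. Annotation was GENCODE vM21, in which 50462 of the 50686 identifiers were found, and promoters were RefSeq windows on GRCm38.p6. Protein sequences were not analysed here, although features of them had been planned. The members and lists were chosen with earlier results of these data known. All 10 members are named, with the 3 genes of smallest p in each pathway list (mean of at least 1 CPM in 1 age).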

Additional observations from a re-analysis of the deposited data

Results flagged for a closer look

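In groups of 4 young libraries, 3 of 39 sets of values held a library farther from the others than Dixon's critical value for 4 samples allows, where chance alone gives about 1.95 (1 in 20). The TPM of Dgat1 was 30.12 in 14C and 25 to 25.57 in the other young libraries, a gap of 0.889 of the range. Its CPM in 14C (27.7) lay within that of the other young libraries (24.4 to 28.7). Its effective length in 14C was 1283.6 bases, against 1404.29 to 1467.68 in the others. The share of Lpin1 in the lipin TPM was 7.30% in 23C and 10.7% to 11.2% in the others, a gap of 0.874 of the range. The share of Lpin2, which is the complement of that of Lpin1, is the same observation (0.874). Groups of 3 old libraries were not examined in this way.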

How the results depend on the processing

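With 3 and 4 mice, 180 alternative fold changes of members were computed, of which 165 kept their direction and side of the threshold, 12 turned direction and 3 were newly called. Gpam was called by DESeq2 and without the count filter, and Agpat1 by DESeq2. No paired analysis was possible because the libraries come from different mice with unrelated codes, and the replicate numbers were given in order of listing. The number of members called was 2 by DESeq2 and 1 without the filter, and 0 in each other setting. DESeq2 called 9.07% of the genes to which it gave an adjusted p, and 288 of 27354 genes were called without the filter. The number of members whose ages did not overlap was 2 to 4 without any 1 library. It was 4 when 3posI was left out, all lower in old mice, against 14.8% of all genes tested. With all libraries, 9.07% of all genes were lower without overlap and 8.67% higher. Without any 1 library, the log2 fold change was -0.23 to 2.19 for Gpat3, -0.27 to 0.05 for Agpat3, -0.16 to 0.41 for Lpin1, -0.27 to 0.26 for Dgat1 and -0.63 to 0.61 for Dgat2. Values that turned direction were those without 3posI for Gpat3 (-0.23), Agpat3 (0.05), Dgat1 (-0.27) and Dgat2 (-0.63), those of Lpin1 without 23C (-0.07), 2posI (-0.16) or 4posI (-0.01) and on log2(TPM + 0.1) (-0.04), those with quality weights for Dgat1 (-0.13) and Dgat2 (-0.49), and those of Dgat2 by limma-voom (-0.02) and on log2(TPM + 0.1) (-0.31). The number of genes called among all was 141, and it was 318 with quality weights, 1399 by DESeq2, 71 on log2(TPM + 0.1) and 288 without the filter. It was 1 to 159 without any 1 library: 1 without 14C, 18C or 2posI, 2 without 29C, 14 without 23C, 85 without 4posI and 159 without 3posI. Of these calls 70.9% were higher in old mice, against 53.2% by DESeq2, 47.9% on log2(TPM + 0.1), 58.2% with the effective-length offset, 81.5% with the GC trend removed, 54.5% without the filter and 50.6% without 4posI. Among the other pathway genes, the number called was 1 with quality weights, RLE factors, log2(TPM + 0.1), the GC trend removed, no filter or filterByExpr, 2 with the effective-length offset (Ctdnep1 and Gpd1l), 3 by DESeq2 (with Dgkz), and 0 to 1 without any 1 library, the single call being Ctdnep1. On CPM in place of TPM, 12 shares moved by more than 1 SD: Agpat1 in old (42.4%), Lpin2 in young (81.5%), Lpin1 in young (18.5%), Gpat3 in young (1.78%), and Dgat1 (86.8% and 87.1%), Dgat2 (13.2% and 12.9%), Agpat2 (9.35% and 12.7%) and Agpat3 (42.7% and 44.9%) in young and old mice. The effective lengths of 6 to 7 members were apart without any 1 library. With all libraries, 15.4% of the 9632 tested genes of varying length were longer in every old library, and 7.10% were shorter. The causes were not tested. Counts under 100, as for Gpat3 in most libraries, limit precision.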
